A study of Danio rerio with 6 samples.

Results

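The genes described here are 40 zebrafish genes of the circadian clock and of its PAR-bZIP output, chosen by symbol from a fixed list, and for each gene the protein-coding RefSeq transcript row with the most counts was used. The table held 16134 transcript rows and 14991 matched symbols. The 6 libraries came from dissected guts of wild-type (WT) larvae at 5 days post-fertilization (dpf), taken 1 h after an injection of protein into the gut and swim bladder, which was bovine serum albumin (BSA) in the control group and a recombinant form of the fish's own IL-26 (rzIl26) in the other, with 3 libraries per group and pools of 10 to 15 guts per library. Both groups were thus of the same genotype and age, both carried the injection itself, and no uninjected group was analysed here. The comparison addressed how the gut transcriptome responded within the hour to IL-26, a cytokine of the IL-10 family. The hour of the day at which guts were taken, the light schedule around it, and whether the BSA and rzIl26 larvae were dissected side by side are not given in the sources used here, so that a difference in clock time between the groups and the injected protein cannot be told apart.

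The vertebrate clock is a transcriptional feedback loop that runs in nearly every cell. BMAL and CLOCK proteins form the activator that binds E-box elements and drives the *per*, *cry* and *nr1d* genes, the PER and CRY proteins return to inhibit that activator, and casein kinase 1 sets the pace by phosphorylating PER. In an interlocked loop the REV-ERB receptors (*nr1d* genes) repress, and the ROR receptors activate, *bmal1* and other genes with a shared response element. The PAR-bZIP factors DBP, TEF and HLF and their antagonist NFIL3 carry the rhythm to output genes through D-box elements. In zebrafish, peripheral organs sense light directly, and *per2* and *cry1a* are known as light-induced genes. Transcripts of *bmal1* and *clock* genes normally cycle out of phase with those of *per1*, *per3* and *nr1d1*.

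Library totals ran from 15156164 to 22219894 counts, and 10576 rows passed the filter on low counts and were tested. Values are given as CPM, the counts of a row scaled to a common library size with the TMM factors of edgeR, fold changes as log2 of rzIl26 over BSA with their standard error (SE), and calls at an adjusted p under 0.05 by the quasi-likelihood test of edgeR with Benjamini-Hochberg adjustment over all rows tested. The enterocyte marker *vil1* stood between 2872 and 3363 CPM in the 6 libraries, whereas the row of *fabp2*, another enterocyte marker, held at most 1.66 CPM. The guts carried other organs in unequal amounts. The mean log2 CPM of 14 liver genes was 8.71, 9.89 and 8.68 in BSA replicates 1 to 3 and 8.58, 9.89 and 9.95 in rzIl26 replicates 1 to 3, so that 1 BSA library and 2 rzIl26 libraries were rich in liver RNA. None of these 14 genes passed the test in either direction, against 18.9% of all rows tested.

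All 40 genes had a row and 33 of them were tested. Of the other 7, *bmal2*, *cry3a*, *rorca* and *nfil3-5* held 0 counts in every library, which allows up to 0.129 to 0.199 CPM per library at the limit of 3 counts that a count of 0 allows. *npas2*, a CLOCK paralog, had 1 count in rzIl26 replicate 3, and *nfil3* had 1 count in BSA replicate 3. *nr1d4a* had 8, 2 and 0 counts in the BSA libraries and 8, 7 and 0 counts in the rzIl26 libraries. A row at 0 does not show that a gene was silent in these guts, because *csnk2a1*, the catalytic subunit of a kinase that cells use throughout the body, also held 0, 0 and 0 counts after BSA and 0, 1 and 1 counts after rzIl26. How reads shared between paralogs or transcripts were counted is not given in the sources used here. Of the 33 tested genes, 32 exceeded the limit of the filter (0.537 CPM of the unscaled library) in all 6 libraries, and *nr1d4b* did so in all but BSA replicate 3.

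Among the 33 tested genes 1 was higher and 8 were lower after rzIl26. The lower genes made up 24.2% of those tested, against 9.6% of all rows tested that were called lower, and the higher gene made up 3.03%, against 9.27% of all rows. In either direction 9 of 33 (27.3%) passed, against 18.9% of all rows. The log2 fold changes were positive in 17 genes and negative in 16, and their median was 0.01, equal to the median of all rows (0.01). In 16 genes (48.5%) the 3 BSA and the 3 rzIl26 libraries did not overlap, 5 of them higher and 11 lower, against 39.6% of all rows (18.7% higher and 20.9% lower). Of the 33 genes, 5 were called lower with log2 fold changes of −1 or below, as were 84 (0.794%) of the 10576 rows. The genes, and the further lists below, were chosen with earlier results of these data known. These shares thus describe the genes and are not a test of the set. Scaling by library totals alone, which moves the median of all rows up by 0.16 on the log2 scale, turned the 1 higher and 8 lower genes into 8 and 7. In whole-gut RNA, fewer cells of a type and less RNA per cell cannot be told apart.

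**Figure D1:**
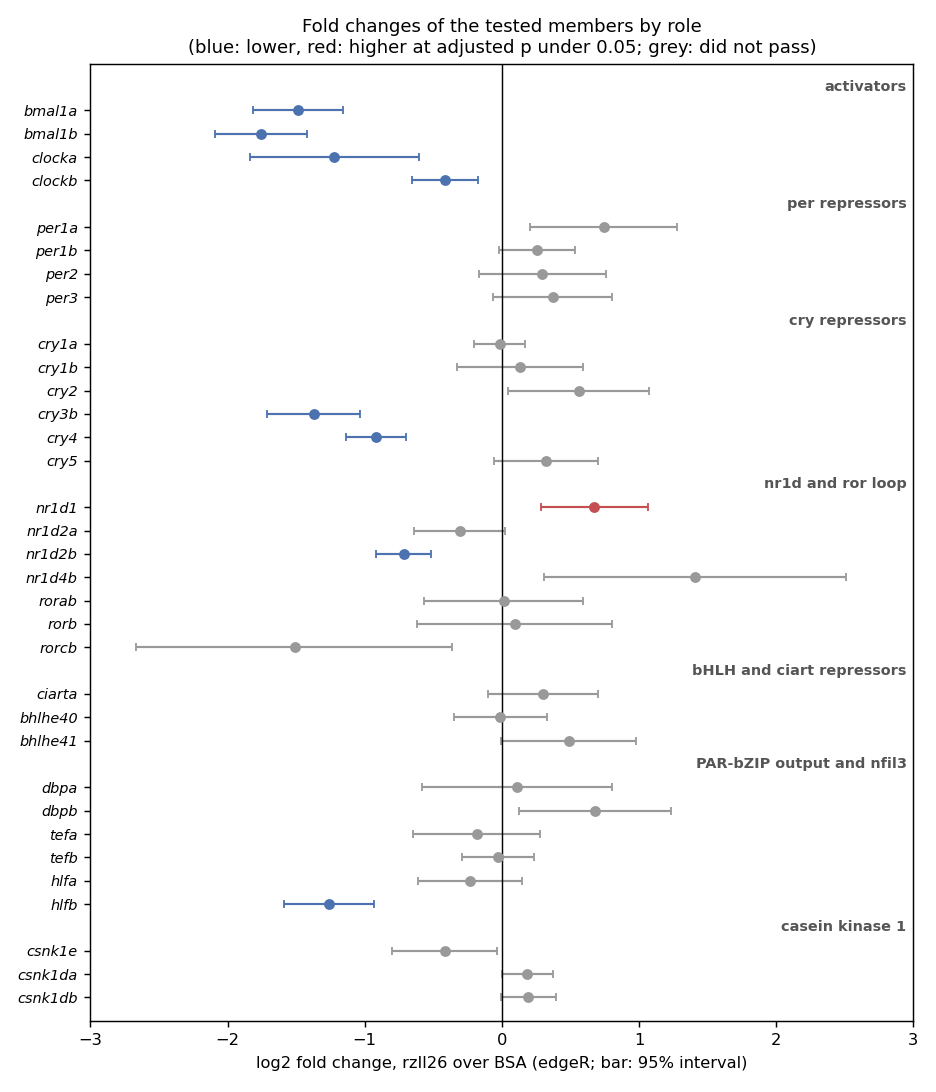
The log2 fold change of each of the 33 tested genes, rzIl26 over BSA, is plotted by role with its 95% interval from the edgeR fit. The 4 activators lie to the left of 0, the 4 *per* genes to the right without passing the test, and the *cry*, *nr1d* and PAR-bZIP genes lie on both sides.

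The activators of the loop were the role in which every tested gene fell, 4 of 4, and their median was −1.35 on the log2 scale. All 4 were called lower (100%, against 9.6% of all rows tested). Their groups did not overlap, against 20.9% of all rows tested that were lower without overlap. *bmal1b* (NM_178300), an obligate partner of CLOCK, read 10.3, 8.30 and 9.35 CPM in the BSA libraries and 2.59, 2.79 and 2.88 CPM in the rzIl26 libraries. Every rzIl26 value was thus below every BSA value by a wide margin. The mean went from 9.32 ± 1.01 to 2.76 ± 0.15 CPM (SD, n = 3 per group), or 29.6% of the BSA level, with a log2 fold change of −1.76 (SE 0.14, 95% interval −2.09 to −1.42, adjusted p = 0.00315 by the edgeR quasi-likelihood test). By fold change it was the row ranked 12 from the lowest of all 10576.

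Its paralog *bmal1a* (NM_131577) read 16.2, 14.5 and 16.99 CPM after BSA and 4.75, 6.35 and 5.88 CPM after rzIl26. The groups were again far apart, and the highest rzIl26 library lay below the lowest BSA library. Its change of −1.49 on that scale (SE 0.14, 95% interval −1.81 to −1.16, adjusted p = 0.00388 by edgeR) left 35.7% of the BSA level, and it ranked 22 from the lowest. Both *bmal1* calls held in all 16 other fits that were made, the 6 fits that left out 1 library included.

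The 2 *clock* genes encode the other subunit of the activator. *clocka* (NM_130957) read 4.22, 3.92 and 4.60 CPM after BSA and 2.65, 1.37 and 1.52 CPM after rzIl26, where replicate 1 stood above the others of its group but below every BSA library. Its log2 fold change was −1.22 (SE 0.26, 95% interval −1.84 to −0.60, adjusted p = 0.0213 by edgeR). The call rested on most of the libraries together: the adjusted p was 0.0649, 0.0514 and 0.0681 without BSA replicates 1, 2 and 3, and 0.0688 and 0.0600 without rzIl26 replicates 2 and 3. *clockb* (NM_178295) fell much less, from 16.2, 16.2 and 17.9 CPM to 13.2, 11.5 and 13.1 CPM, with groups that did not overlap. It changed by −0.41 on the log2 scale (SE 0.10, 95% interval −0.65 to −0.18, adjusted p = 0.0318 by edgeR). That call was also lost without BSA replicate 1, 2 or 3 (adjusted p = 0.0737, 0.0722 and 0.0967), without rzIl26 replicate 2 or 3 (0.0920 and 0.0562), with scaling by library totals alone (0.156) and with the liver score as a covariate (0.0616).

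**Figure D2:**
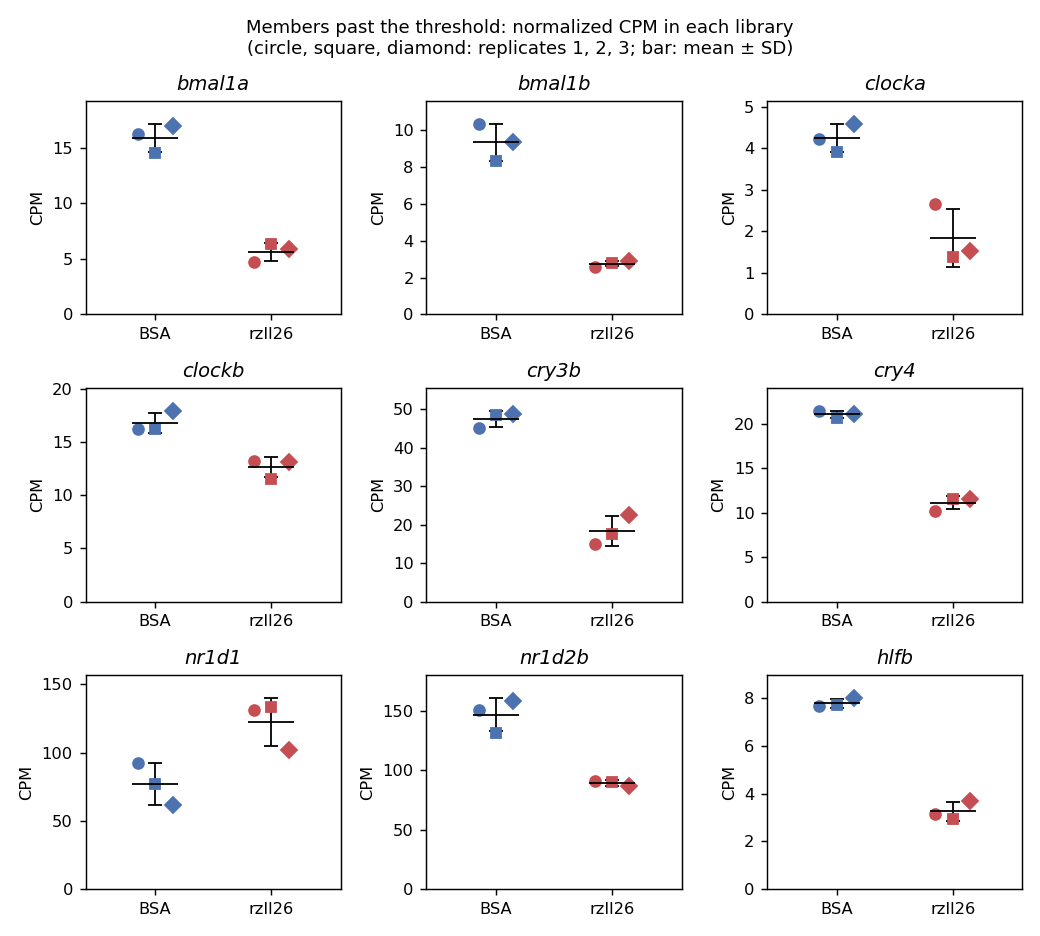
CPM of the 9 genes that passed the test is plotted for each library on axes that start at 0, with circles, squares and diamonds for replicates 1, 2 and 3 and bars for the mean ± SD. In all 9 panels the BSA and rzIl26 libraries do not overlap, and *nr1d1* is the panel in which the rzIl26 libraries are the higher ones.

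The *per* genes encode the inhibitors that accumulate against the activator, and none of the 4 passed the test. All 4 log2 fold changes were positive, from 0.26 to 0.74 with a median of 0.33. *per1a* (NM_001030183) read 24.4, 16.9 and 16.5 CPM after BSA and 43.1, 27.6 and 26.3 CPM after rzIl26. Replicate 1 was the highest library of both groups, and the groups did not overlap. The log2 fold change was 0.74 (SE 0.23, 95% interval 0.20 to 1.28, adjusted p = 0.0623 by edgeR). It passed with DESeq2 (adjusted p = 0.00823), with the liver score as a covariate (0.0176) and with library totals alone (0.0288), and in all in 4 of the 16 other fits. It passed in 0 of the 6 fits without 1 library (adjusted p = 0.0590 to 0.168 by edgeR). *per1b*, *per2* and *per3* had log2 fold changes of 0.26, 0.30 and 0.37 and groups that overlapped. The light-induced *per2* ran from 140 to 197 CPM after BSA and from 160 to 266 CPM after rzIl26 (adjusted p = 0.331 by edgeR), a spread within each group that was larger than the difference between the means of 170 ± 28.4 and 209 ± 53.3 CPM (SD, n = 3).

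The *cry* genes were divided. In zebrafish, cryptochromes 1a, 1b, 3a and 3b are known repressors of the BMAL-CLOCK activator in cell assays, cryptochromes 2 and 4 lack that activity there, and *cry5* encodes a photolyase that repairs light-damaged DNA. *cry3b* (NM_131792) read 45.1, 48.6 and 48.7 CPM after BSA and 15.0, 17.6 and 22.5 CPM after rzIl26. The groups were separated by more than their own widths. The mean went from 47.5 ± 2.07 to 18.3 ± 3.80 CPM (SD, n = 3), or 38.7% of the BSA level, with a log2 fold change of −1.37 (SE 0.15, 95% interval −1.71 to −1.03, adjusted p = 0.00444 by edgeR). *cry4* (NM_131787) was the least variable of the tested genes among BSA libraries, at 21.4, 20.7 and 21.1 CPM, and read 10.2, 11.6 and 11.6 CPM after rzIl26. It thus stood at 53.0% of the BSA level with both groups tight (log2 fold change −0.92, SE 0.09, 95% interval −1.13 to −0.70, adjusted p = 0.00402 by edgeR). Both calls held in all 16 other fits.

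The remaining *cry* genes did not pass. *cry1a*, which light induces, read 95.2, 95.1 and 88.2 CPM after BSA and 97.4, 92.2 and 85.8 CPM after rzIl26, and the 95% interval of its log2 fold change ran from −0.20 to 0.17. *cry2* (NM_131786) went the opposite way to *cry3b* and *cry4* in value, at 41.0, 30.3 and 24.6 CPM against 59.12, 44.1 and 38.3 CPM, with overlapping groups (log2 fold change 0.56, SE 0.22, adjusted p = 0.118 by edgeR). DESeq2 gave it an adjusted p of 0.0448, and library totals alone 0.0471. It passed in 3 of the 16 other fits and in 0 of the 6 fits without 1 library (adjusted p = 0.0686 to 0.271 by edgeR). *cry1b* and *cry5* had log2 fold changes of 0.13 and 0.32 and overlapping groups.

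In the *nr1d* and *ror* loop, the REV-ERB genes that passed the test went opposite ways. *nr1d1* (NM_205729), which encodes REV-ERBα, was the single member called higher. It read 92.1, 76.7 and 61.4 CPM after BSA and 132, 134 and 102 CPM after rzIl26. The lowest rzIl26 library lay above the highest BSA library. It rose by 0.67 on the log2 scale (SE 0.17, 95% interval 0.28 to 1.06, adjusted p = 0.0320 by edgeR). The call was lost without BSA replicate 2 (adjusted p = 0.0837) or 3 (0.0758) and without rzIl26 replicate 1 (0.0673) or 2 (0.0987), while the log2 fold change stayed between 0.53 and 0.84 in every fit. *nr1d2b* (NM_131065), a REV-ERBβ gene, read 151, 131 and 158 CPM after BSA and 91.2, 89.6 and 86.9 CPM after rzIl26. The rzIl26 libraries were nearly alike, and all lay below the BSA libraries. It fell to 60.8% of the BSA level (log2 fold change −0.72, SE 0.09, 95% interval −0.92 to −0.51, adjusted p = 0.00540 by edgeR), and this call held in all 16 other fits.

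Other genes of that loop had separate groups without passing the test. In all, 5 of the 7 tested genes of the loop (71.4%) had separate groups, against 39.6% of all rows tested. *nr1d2a*, the paralog of *nr1d2b*, read 108, 98.8 and 111 CPM after BSA and 92.3, 97.4 and 66.9 CPM after rzIl26 (log2 fold change −0.31, SE 0.14, adjusted p = 0.170 by edgeR). Its nearest libraries of the opposite groups were almost equal. *nr1d4b*, a further REV-ERB gene, held 16, 9 and 5 counts after BSA and 26, 46 and 16 counts after rzIl26 (log2 fold change 1.41, SE 0.47, adjusted p = 0.0775). *rorcb* (NM_001277094) encodes a receptor of the ROR family whose mammalian counterpart RORγ also acts in lymphocytes, and it held 68, 41 and 46 counts after BSA and 33, 12 and 11 counts after rzIl26. Replicate 1 of rzIl26 stood well above the other libraries of its group. The log2 fold change was −1.51 (SE 0.49, 95% interval −2.67 to −0.36, adjusted p = 0.0717 by edgeR), and without rzIl26 replicate 1 it was −2.37 (adjusted p = 0.0104). It also passed with DESeq2 (adjusted p = 0.0178) and limma-voom (0.0346), and in all in 4 of the 16 other fits. Without any other single library it did not pass (adjusted p = 0.120 to 0.184 by edgeR, log2 fold change −1.64 to −1.15). *rorab* and *rorb*, at about 1 CPM in each group mean, had log2 fold changes of 0.01 (SE 0.25) and 0.09 (SE 0.31), too imprecise to show a change of moderate size.

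None of the 3 further E-box repressors passed. *ciarta*, the gene of CHRONO, read 50.4, 40.2 and 34.6 CPM after BSA and 56.3, 56.5 and 41.5 CPM after rzIl26. *bhlhe41* read 8.28, 7.57 and 5.99 CPM against 9.38, 13.0 and 8.05 CPM. Their log2 fold changes were 0.30 (SE 0.17) and 0.49 (SE 0.21), and in both the groups overlapped. *bhlhe40* stood near 100 CPM, with means of 99.2 ± 3.71 and 98.4 ± 21.0 CPM (SD, n = 3), and its log2 fold change was −0.01 (SE 0.15).

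Of the PAR-bZIP output genes 1 of 6 tested passed (16.7%, against 18.9% of all rows tested). *hlfb* (NM_001197059) read 7.66, 7.70 and 8.004 CPM after BSA and 3.15, 2.92 and 3.70 CPM after rzIl26. The BSA libraries differed by a coefficient of variation of 2.42%, and each rzIl26 library lay below them. The log2 fold change was −1.26 (SE 0.14, 95% interval −1.59 to −0.93, adjusted p = 0.00527 by edgeR), which left 41.7% of the BSA level, and the call held in all 16 other fits. Its paralog *hlfa* (NM_001077334) read 71.2, 51.1 and 59.5 CPM after BSA and 62.5, 46.5 and 46.0 CPM after rzIl26, with overlapping groups (log2 fold change −0.23, SE 0.16, 95% interval −0.61 to 0.15, adjusted p = 0.353). *dbpb* (NM_001197062) was the other gene of the role with separate groups, at 5.00, 4.05 and 2.74 CPM against 7.47, 5.75 and 5.71 CPM (log2 fold change 0.68, SE 0.24, adjusted p = 0.0868 by edgeR). *dbpa*, *tefa* and *tefb* overlapped, with log2 fold changes of 0.11, −0.18 and −0.03. The 6 values of the D-box activators ran from −1.26 to 0.68 with a median of −0.11.

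The casein kinase 1 genes did not pass either. *csnk1da* and *csnk1db*, the casein kinase 1δ genes, both had a log2 fold change of 0.19 (SE 0.08 each), and *csnk1da* read 130, 120 and 112 CPM after BSA and 143, 136 and 133 CPM after rzIl26. *csnk1e* read 6.72, 8.10 and 7.90 CPM against 6.67, 5.62 and 4.73 CPM, a change of −0.42 on the log2 scale (SE 0.16, adjusted p = 0.116 by edgeR). In *csnk1da* and *csnk1e*, 2 of the 3 genes (66.7%), the groups did not overlap, against 39.6% of all rows tested. The gap was narrow for *csnk1e*.

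**Figure D3:**
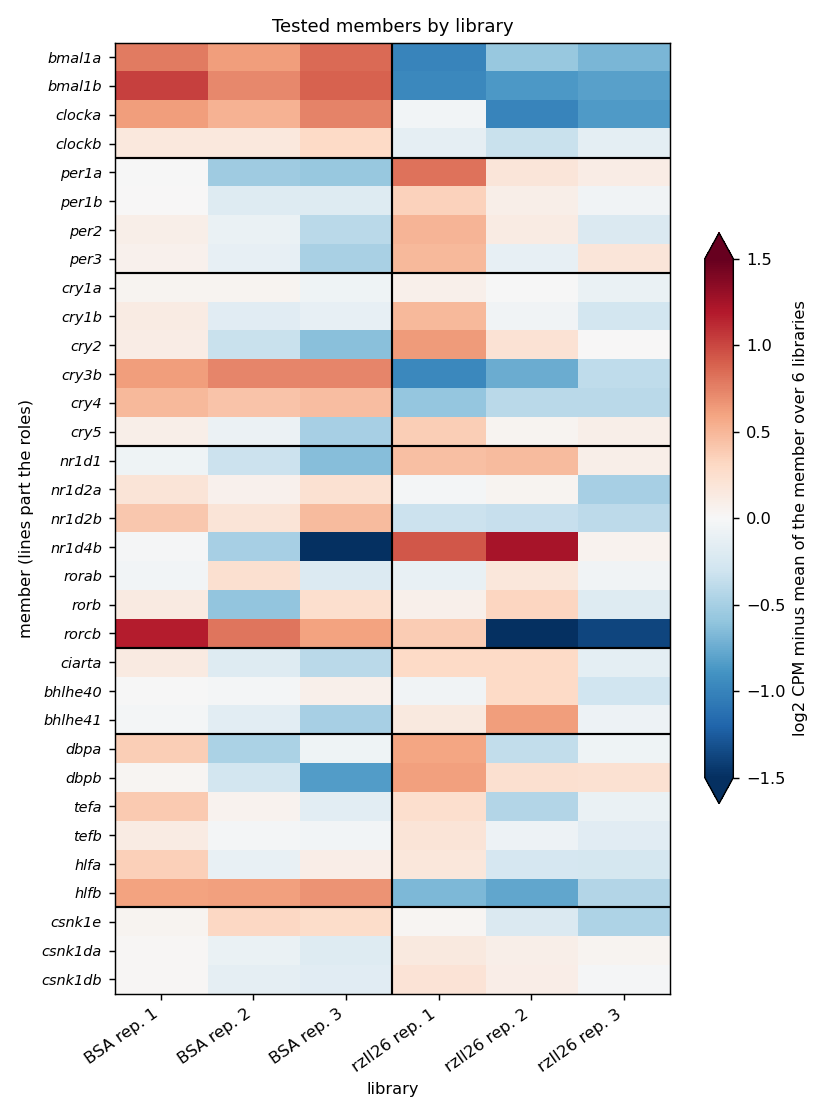
Each row is a tested gene, in the order of the roles, and each column a library, with colour for the log2 CPM minus the mean of that gene over the 6 libraries (red higher, blue lower, colour scale ending at 1.5 either way). The *bmal1*, *clocka*, *cry3b*, *cry4* and *hlfb* rows are red in the 3 BSA and blue, or for *clocka* near white in replicate 1, in the 3 rzIl26 libraries.

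Zebrafish keep duplicate copies of many clock genes, and the ratio of the counts of a pair within a library does not depend on how the library was scaled. It does depend on transcript length, which was not corrected for. In 6 of 10 pairs compared, the ratio took values that did not overlap between groups. The share over other pairs of genes was not computed, and of all single rows tested 39.6% did not overlap. The *hlfa* to *hlfb* ratio was 9.30, 6.64 and 7.44 after BSA and 19.8, 15.9 and 12.4 after rzIl26, a difference of 1.03 on the log2 scale. The *clocka* to *clockb* ratio was 0.260, 0.242 and 0.256 after BSA and 0.201, 0.119 and 0.116 after rzIl26, a difference of −0.85. *hlfb* and *clocka* were the copies with the larger fall. The *per1a* to *per1b* ratio was 0.385, 0.309 and 0.300 against 0.541, 0.414 and 0.436. The *nr1d2a* to *nr1d2b* ratio was 0.717, 0.754 and 0.700 against 1.01, 1.09 and 0.770. The 2 *bmal1* copies differed little in their fall, with a *bmal1a* to *bmal1b* ratio of 1.58, 1.75 and 1.82 against 1.83, 2.28 and 2.04, and the sixth pair was *bhlhe40* and *bhlhe41*, with a difference of −0.50. An exact two-sided permutation test of 3 against 3 libraries cannot give a p below 0.1, which each of these 6 pairs reached (adjusted p = 0.167 over the 10 pairs). The *csnk1da* to *csnk1db* ratio, between 0.442 and 0.478 in all 6 libraries, was the steadiest of the 10 pairs by its difference of −0.01 (exact permutation p = 0.9).

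Ratios between the genes of opposite direction were chosen after their values were seen and are given as a description. In each pair the first gene was higher and the second lower after rzIl26, without overlap, so the ratios had to separate the groups. *nr1d1* over *bmal1b* was 8.93, 9.24 and 6.57 in the BSA libraries and 50.7, 47.9 and 35.4 in the rzIl26 libraries. *nr1d1* over *bmal1a* was 5.67, 5.27 and 3.61 against 27.7, 21.0 and 17.4. The count of this REV-ERB gene relative to the *bmal1* genes was thus several times larger in each rzIl26 library than in any BSA library. The ratio of *per1a* to *cry3b*, genes of the same inhibitory arm, went from 0.540, 0.348 and 0.339 to 2.87, 1.57 and 1.17. That of *nr1d1* to *nr1d2b*, both REV-ERB genes, went from 0.610, 0.585 and 0.389 to 1.44, 1.49 and 1.18.

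**Figure D4:**
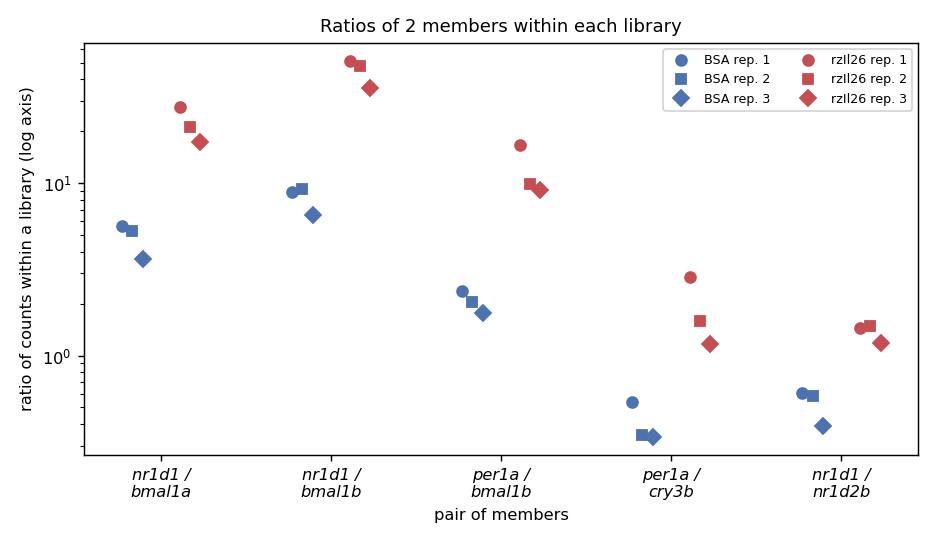
The ratio of the counts of a pair of genes within each library is plotted on a log axis, blue for BSA and red for rzIl26, with a marker for each replicate. For all 5 pairs the 3 red points lie above the 3 blue ones, and for *nr1d1* over *bmal1b* they lie at 35.4 to 50.7 against 6.57 to 9.24. The first gene of each pair was higher and the second lower without overlap, so this separation was fixed by the choice of pairs.

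Within the groups, the libraries also ordered the clock genes unevenly. BSA replicate 1 was the highest BSA library for 22 of the 33 genes (66.7%, against 34.3% of all rows tested), and rzIl26 replicate 1 was the highest rzIl26 library for 20 (60.6%, against 36.7%). All 4 *per* genes were highest in replicate 1 of both groups, as were 5 of 6 PAR-bZIP genes in each group. The activators did not share this order, since 3 of the 4 were highest in BSA replicate 3. rzIl26 replicate 3 was the lowest rzIl26 library for 20 genes (60.6%, against 33.0% of all rows). These genes vary together, so that the counts describe the 6 libraries and are not separate observations. Replicate 1 of each group was also a library with little liver RNA. BSA replicate 3 had as little, with a liver score of 8.68 against 8.71 in BSA replicate 1. It was the lowest BSA library for 17 of the 33 genes (51.5%, against 34.5% of all rows). The part of liver RNA in the order was not tested.

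Further lists gave the surroundings of the clock. Of 34 accessory genes, 23 were tested, 5 were higher (21.7%, against 9.27% of all rows) and 2 lower (8.7%, against 9.6%), and the median of the list was 0.11 on the log2 scale. *nono* and *sfpq*, RNA-binding partners of the PER complex in mammals, rose by log2 fold changes of 0.36 (SE 0.08, adjusted p = 0.0232) and 0.33 (SE 0.08, adjusted p = 0.0336) by edgeR. *ncor1*, the corepressor through which REV-ERB acts, fell by 0.45 (SE 0.11, adjusted p = 0.0328), and *ddb1*, an adaptor of a ubiquitin ligase, fell by 0.29 (SE 0.07, adjusted p = 0.0249). Each of these 4 calls was lost in at least 4 of the 6 fits without 1 library, and those of *ncor1* and *ddb1* also with library totals alone (adjusted p = 0.112 and 0.258). The call of *sfpq* was also lost with the liver covariate (0.0609), and that of *ddb1* with the replicate block (0.0506).

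Of 25 clock-output and light-responsive genes, 15 were tested, with 1 higher, 1 lower and a median of 0.06, so that 13.3% passed against 18.9% of all rows. *pparaa*, the lipid-sensing receptor PPARα, fell by 0.52 on the log2 scale (SE 0.12, adjusted p = 0.0280 by edgeR). The deubiquitinase gene *usp2a* rose by 0.39 (SE 0.11, adjusted p = 0.0491), the weakest of these calls. Of 14 genes that respond to glucocorticoids, hormones that also set peripheral clocks, 13 were tested, with 1 higher (7.69%, against 9.27% of all rows), 3 lower (23.1%, against 9.6%) and a median of −0.24. *hsd11b2*, which inactivates cortisol, read 38.8, 31.5 and 67.3 CPM after BSA and 21.5, 14.1 and 17.8 CPM after rzIl26. It fell by 1.37 on the log2 scale (SE 0.29, adjusted p = 0.0202 by edgeR), a call lost without rzIl26 replicate 2 (0.0722) or 3 (0.0563). The glucocorticoid receptor gene *nr3c1* fell by 0.56 (SE 0.15, adjusted p = 0.0420) and the kinase gene *sgk2a* by 0.89 (SE 0.22, adjusted p = 0.0303), while *cebpd* rose by 0.38 (SE 0.09, adjusted p = 0.0283). The calls of *pparaa*, *usp2a*, *nr3c1*, *sgk2a* and *cebpd* were each lost in 4 or 5 of the 6 fits without 1 library. Under library totals alone *pparaa*, *sgk2a* and *nr3c1* did not pass either (adjusted p = 0.0697, 0.0593 and 0.102), and neither did *nr3c1* and *usp2a* with the liver covariate (0.0643 and 0.0911). *usp2a* passed neither with limma-voom (0.0530) nor with upper-quartile factors (0.0565).

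Marker lists of the tissues that a gut pool can hold were read beside these values. Of 9 tested enterocyte markers 0 were higher and 1 was lower (11.1%, against 9.6% of all rows tested). The lower one was *apoa4b.1*, an apolipoprotein (log2 fold change −0.51, adjusted p = 0.0109 by edgeR). The summed level of the list was 19637 to 20547 CPM after BSA and 15759 to 18660 CPM after rzIl26. Of 7 tested muscle markers 1 was higher (14.3%, against 9.27% of all rows tested) and 0 were lower, with sums of 4586 to 4815 and 5153 to 5898 CPM. The higher one was *myh11a*, smooth muscle myosin (log2 fold change 0.35, adjusted p = 0.0289 by edgeR). The sums of both lists did not overlap between the groups, and without the called gene of each they did, at 10681 to 11101 and 9901 to 12245 CPM for enterocyte genes and at 3838 to 4100 and 4095 to 4954 CPM for muscle genes. The overlap of the muscle sums was narrow, and all 7 tested muscle markers had positive log2 fold changes (median 0.325). So did all 7 tested neuron markers (median 0.169), 11 of 14 tested liver markers and 3 of 12 exocrine pancreas markers. Of the enterocyte markers 3 were positive and 6 negative. The call of *myh11a* was lost in 5 of the 6 fits without 1 library. The full sums overlapped for 15 liver genes (31909 to 47732 and 33097 to 39442 CPM). Most of the liver sum was *apobb.1* (29415 of 38680 CPM in BSA replicate 1), and the sum did not follow the liver score. It was 38680 CPM in BSA replicate 1 (score 8.71) and 33867 CPM in rzIl26 replicate 2 (score 9.89). Sums also overlapped for 12 genes of the exocrine pancreas (44983 to 62062 and 32106 to 56426 CPM, 0 called of 12), for 7 leukocyte genes (30.5 to 38.1 and 33.5 to 37.0 CPM, 0 called of 3, with *mpeg1.1* at 0) and for 8 neuron genes (71.7 to 79.1 and 65.9 to 99.9 CPM, 0 called of 7). Photoreceptor and pineal genes, which would mark attached eye or brain tissue with its own clock, summed to 2.7 to 3.0 CPM after BSA and 3.1 to 3.6 CPM after rzIl26. These low sums did not overlap, by a narrow gap. *rho*, *opn1sw1*, *opn1lw1* and *otx5* were at 0. *saga*, the 1 tested gene of the list, held 18 to 42 counts (log2 fold change 0.38, adjusted p = 0.323 by edgeR, overlapping groups), and *exorh* held 6 to 13 counts. The part of the enterocyte and muscle levels in the clock gene values was not tested.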

How the data were processed

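Guts of 5-dpf WT larvae were profiled by bulk RNA-seq 1 h after injection of rzIl26 or BSA (3 pools each). Per the labels, the authors made stranded mRNA libraries (Illumina TruSeq), sequenced paired ends on an Illumina instrument and aligned reads to danRer11. The aligner, the counter and the annotation are not given in the sources used here. The authors deposited raw read counts per RefSeq transcript accession, without normalization, and all 6 columns were used. Of 16134 rows, 15776 were matched to a symbol through the RefSeq gene table of GRCz12tu, which was used for names only, and no coordinates are given because that build differs from danRer11. Sequences of the genes are not given.

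Counts were tested in R 4.3.3 with edgeR 4.0.16 (filterByExpr with a minimum count of 10, TMM factors, glmQLFit and glmQLFTest, group as the only term) on all 10576 rows kept. Calls were made at a Benjamini-Hochberg adjusted p under 0.05 over all rows. Standard errors and 95% intervals came from the same fit, and means ± SD from the scaled CPM. The labels call the replicates biological. Whether pools came from separate clutches is not given. The p-values set the group difference against the variation between these pools, estimated in part over all rows. No library was a copy of another. The genes and lists were chosen with earlier results of these data known. Called members were described with every library, other members where their groups did not overlap or as paralogs of a called member, and of each further list at most 4 called genes with the lowest adjusted p. Pairs of genes were compared with exact permutation tests (scipy 1.17.1).

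Alternatives were other scalings, filters and thresholds, the replicate number as a block, a liver score (mean log2 CPM of 14 liver genes) as covariate, rows summed per gene, DESeq2 1.42.0, limma-voom (limma 3.58.1) and leaving out each library. Simulated counts for 10576 rows used the libraries' own totals and dispersion. In them 100 rows were changed by 1 on the log2 scale and 100 by 0.5, all drawn from rows with higher counts. The test recovered 71 and 6 of these, with 5 false calls. In the data 18.9% of rows were called, a far larger share than was changed in the simulation, and the adjusted threshold depends on that share. The recovery is thus not that of these data, nor of genes with low counts. A miss at a small fold change does not show that a gene was stable.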

Additional observations from a re-analysis of the deposited data

How the results depend on the processing

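Of the 9 calls among the clock genes, 6 (*bmal1a*, *bmal1b*, *cry3b*, *cry4*, *nr1d2b*, *hlfb*) held in all 16 other fits and 3 (*clocka*, *clockb*, *nr1d1*) did not. Against 1 higher and 8 lower of the 33 genes, and 980 and 1015 of all rows, the counts that moved were as follows. Scaling by library totals alone, which shifts the median of all rows by 0.16 on the log2 scale, gave 8 genes higher, and 1783 rows higher and 400 lower. DESeq2 gave 3 genes higher and the liver covariate 2. A threshold of 0.1 gave 4 genes higher and 1535 rows lower. Asking also for a change of at least 1 on the log2 scale gave 0 higher and 5 lower genes, and 221 and 84 rows. Without 1 library, 0 to 1 genes were higher and 6 to 9 lower, and 339 to 874 rows higher and 398 to 940 lower. The row counts fell to 339 and 398 without BSA replicate 1, 481 and 497 without BSA replicate 2, 453 and 525 without BSA replicate 3, and 404 and 420 without rzIl26 replicate 2. The fits without 1 library also had fewer libraries, and without rzIl26 replicate 1 the row counts were 874 higher and 940 lower. The cause of these changes was not tested.

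Whether the replicate numbers pair the samples is not given in the sources used here, and the libraries do not settle it. Same-numbered libraries correlated at 0.31, 0.11 and 0.01 in their deviations from the group means. The value of 0.31 was the highest of all pairs of a BSA and an rzIl26 library. BSA replicate 2 correlated best with rzIl26 replicate 3 (0.19). With the replicate block 5 clock genes were higher and 9 lower. All 9 calls were kept, and *per1a* (adjusted p = 0.0103), *cry2* (0.0136), *nr1d4b*, *dbpb* and *rorcb* (0.0399) were added.

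Over the 33 genes and all alternatives, 529 of 593 log2 fold changes kept direction and side of the threshold, 20 calls in 5 genes were lost (those of *cry4* and *nr1d2b* only where a change of at least 1 was asked for), 22 values in 8 genes passed only there, and 22 values in 7 genes that never passed changed sign. On the log2 scale, these were *cry1a* (0.15 with library totals alone, −0.0614 to 0.0279 without 1 library), *cry1b* (−0.11 to 0.28 without 1 library), *rorab* (−0.0164 with upper-quartile factors, −0.000202 with the replicate block, −0.0744 with the liver covariate, −0.084 to 0.13 without 1 library), *rorb* (−0.11 to 0.25), *bhlhe40* (0.15 with library totals alone, −0.19 to 0.12 without 1 library), *dbpa* (−0.21 to 0.34) and *tefb* (0.13 with library totals alone, 0.02515 with the liver covariate, −0.14 to 0.0428 without 1 library). Counts were low for *nr1d4b*, *rorab*, *rorb* and *rorcb*, whose standard errors were 0.25 to 0.49, and that of *rorcb* was 0.315 without rzIl26 replicate 1.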

Other observations

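The sizes of the differences can be written as half-lives. If synthesis of a transcript had stopped at injection, 60 min before dissection, and the pools had started alike, the fitted fold changes would correspond to 34.2 min for *bmal1b* (28.7 to 42.2 min over the 95% interval of the fold change), 40.4 min for *bmal1a* (33.1 to 51.6), 43.8 min for *cry3b* (35.1 to 58.2), 47.6 min for *hlfb* (37.7 to 64.6), 49.1 min for *clocka* (32.6 to 99.4), 65.4 min for *cry4* (52.9 to 85.7), 83.7 min for *nr1d2b* (65.2 to 116.8) and 144.9 min for *clockb* (91.9 to 342.7). Each value only restates its fold change. Transcript half-lives were not measured in these libraries, and whether synthesis stopped or the pools started alike was not tested.

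Among the BSA libraries the median coefficient of variation of the 33 genes was 11.1%, and among the rzIl26 libraries 17.1%. The narrowest spread was that of *cry4* in the BSA group (1.79%) and of *nr1d2b* in the rzIl26 group (2.43%), and the widest in the rzIl26 group was that of *rorcb* (81.5%).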
